A study of Mus musculus with 16 samples.

Results

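The genes of the elastic fibre and of its crosslinking were followed in left lungs of adult mice that had been exposed in utero to tobacco smoke or to filtered air. The set comprised 10 genes, Eln, Fbn1, Fbln1, Fbln5, Lox, Loxl1, Loxl2, Mfap4, Mfap5 and Emilin1, and its members were all probe sets annotated with exactly 1 of these symbols. Such probe sets were found for 8 of the 10 genes. They numbered 17 of the 45037 probe sets tested, which represented 18193 genes in all. Fbn1 (fibrillin-1, the main microfibril protein) was not analysed here because no probe set was listed for it. Loxl2 (a lysyl oxidase-like enzyme) was not used because each of its 2 probe sets was also annotated with another symbol.

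The arrays came from 16 inbred Balb/c mice of 23 weeks, with 4 animals in each of 4 groups. The groups were SHS females, air females, SHS males and air males. SHS stands for second-hand smoke, and the exposure was in utero. It was to sidestream smoke at a particle load of 10 mg/m3, in daily sessions of 5 h, 7 days a week. Filtered air was the control. All 4 groups shared the later treatment, in which the allergen ovalbumin (OVA, from egg white) was injected at 19 and 21 weeks and given as an aerosol in weeks 22 and 23. No lung without OVA was compared here, so every difference is between allergen-challenged lungs. The sources used here do not give mothers or litters, so littermates within a group cannot be told from independent litters, and p-values measure the spread between these animals. SHS was compared with air within each sex and averaged over the sexes.

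Elastic fibres let the lung recoil after each breath. Their core is elastin, which is secreted as soluble tropoelastin, gathered onto a scaffold of microfibrils with the help of fibulins, and made insoluble when lysyl oxidases oxidise its lysines so that they crosslink. In the mouse most of this elastin is laid down while the air spaces form, and the fibres then turn over slowly. The microfibrils also hold latent TGF-beta, a growth factor that induces matrix genes.

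Values were log2 intensities of probe sets, so a difference of 1 is a doubling of the signal. Arrays of the same sex correlated across all probe sets at 0.990 to 0.998. The array of SHS female 4 stood apart from its group: its mean correlation was 0.9924 with the other SHS females and 0.9951 with the air females. No other array was nearer to the other exposure of its sex. The labels name lung as the tissue, and markers of lung epithelium were bright. Their mean over 7 genes lay between 12.9 and 13.1 in SHS females and between 12.9 and 13.1 in air females. It lay between 12.7 and 12.9 in SHS males and between 12.8 and 12.9 in air males. Of the 17 member probe sets, 15 had a mean above the 40th percentile of all probe sets, 6.38. The others were 1 set each of Fbln5 and Lox. No filter was applied before the tests, and fewer cells of a type and less RNA per cell cannot be told apart in whole lungs.

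Across the set, Emilin1 and Lox were higher and Eln, Fbln5 and Mfap4 were lower after SHS when the sexes were averaged, while Fbln1, Mfap5 and Loxl1 did not pass the test. The changes lay between 1.20-fold and 1.48-fold. With limma and Benjamini-Hochberg adjustment over all probe sets, 6 of 17 member sets from 5 genes passed an adjusted p of 0.05 in the averaged comparison, against a background of 10.3% of all probe sets. Of these, 3 were higher (background 6.65%) and 3 were lower (background 3.67%). In females 4 of 17 passed (background 2.87%), 3 higher (background 2.36%) and 1 lower (background 0.517%). In males 3 of 17 passed (background 5.18%), 1 higher (background 3.07%) and 2 lower (background 2.11%). The median log2 difference over the member sets was -0.14 in females, -0.16 in males and -0.16 averaged, beside medians over all probe sets of -0.01, 0.00 and -0.01. The SHS and air arrays did not overlap for 4 member sets in females (background 8.25%) and for 5 in males (background 15.4%). Without both SHS arrays numbered 4, the counts of member sets called were 5 in females, 3 in males and 8 averaged. Calls over all 45037 probe sets were then 3954 in females, 3315 in males and 7520 averaged. With all arrays they were 1294, 2332 and 4652.

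**Figure D1:**
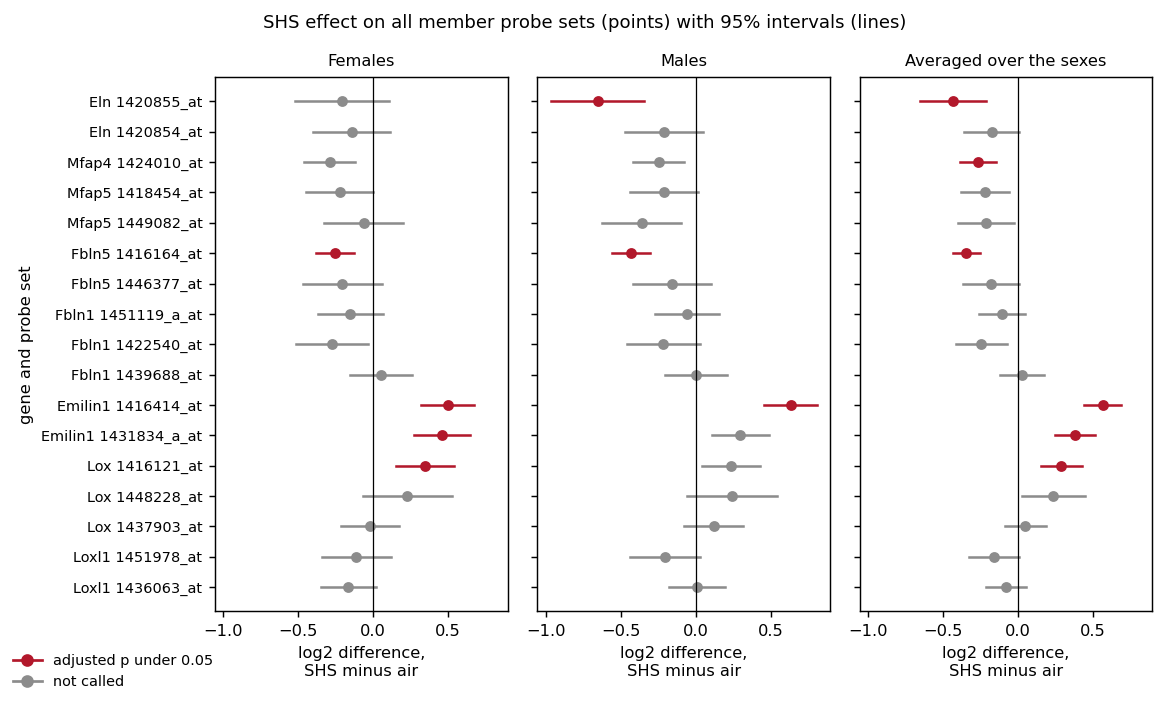
SHS minus air log2 difference of each of the 17 member probe sets (points) with its 95% confidence interval (lines), for females, for males and for the average of both. Red marks an adjusted p under 0.05: both Emilin1 sets and 1 Lox set lie to the right of 0 in the averaged panel, and 1 set each of Eln, Mfap4 and Fbln5 lies to the left.

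Emilin1 showed the largest rise of the set. It encodes EMILIN-1, a glycoprotein at the border between elastin and microfibrils that in mice also holds back the processing of pro-TGF-beta. The probe set 1416414_at read 10.40, 10.41, 10.35 and 10.28 in the 4 SHS females, against 9.97, 9.85, 9.69 and 9.95 in the air females. In males it read 10.13, 10.04, 10.07 and 10.09 after SHS, against 9.49, 9.63, 9.22 and 9.46 after air. In both sexes every SHS lung was above every air lung.

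The log2 difference of this Emilin1 set was 0.50 ± 0.08 (standard error, as for all log2 differences, n = 4 per group) in females, a 1.41-fold rise with a limma adjusted p of 0.00286. In males it was 0.63 ± 0.08, a 1.55-fold rise with a limma adjusted p of 0.000437. Averaged over the sexes it was 0.57 ± 0.06, with a limma adjusted p of 1.12e-05. The call held in all 3 comparisons whichever of the 16 arrays was left out.

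The second Emilin1 set, 1431834_a_at, read 9.04, 8.97, 9.27 and 8.98 in SHS females, against 8.79, 8.59, 8.45 and 8.60 in air females. In males it read 7.53, 7.60, 7.53 and 7.43 after SHS, against 7.14, 7.15, 7.16 and 7.43 after air. Female groups were separate, while among males the air lung 4 matched the lowest SHS lung. The rise was 0.46 ± 0.09 in females (limma adjusted p 0.00862) and 0.38 ± 0.06 averaged over the sexes (limma adjusted p 0.000823). The female call was lost when only the 8 female arrays were fitted (limma adjusted p 0.0502). In males the difference was 0.30 ± 0.09 and was not called (limma adjusted p 0.0617). Both Emilin1 sets thus had a positive difference in each sex.

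**Figure D2:**
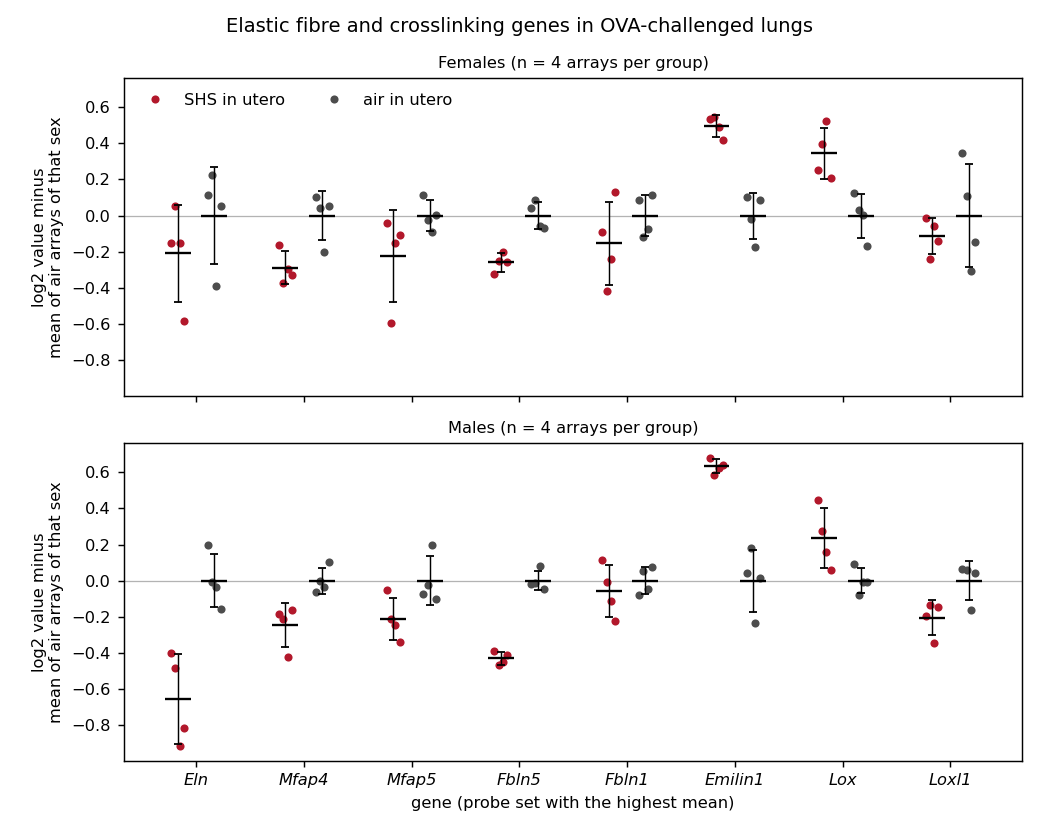
Log2 intensity of each member gene (its brightest probe set) minus the mean of the air arrays of the same sex, for females (top) and males (bottom), with the 4 arrays of each group as points and the group mean and SD as bars. Emilin1 and Fbln5 separate SHS from air in females and in males, Eln and Mfap4 separate them in males, and Lox separates them in females.

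Fbln5 was lower after SHS in both sexes. It encodes fibulin-5, which tethers elastin to microfibrils and to cell-surface integrins, and mice without it have disorganised elastic fibres and enlarged air spaces. The probe set 1416164_at read 11.19, 11.26, 11.32 and 11.26 in SHS females, against 11.55, 11.60, 11.46 and 11.45 in air females. In males it read 11.15, 11.08, 11.09 and 11.13 after SHS, against 11.53, 11.53, 11.62 and 11.50 after air. Every SHS lung was below every air lung of its sex.

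The Fbln5 difference was -0.26 ± 0.06 in females, 1.20-fold lower with a limma adjusted p of 0.0252. In males it was -0.43 ± 0.06, 1.35-fold lower with a limma adjusted p of 0.000676. Averaged over the sexes it was -0.34 ± 0.04, with a limma adjusted p of 5.32e-05. The female call was lost in 4 of 16 fits with an array left out, those without SHS female 1 or 2 or air female 1 or 2, where the adjusted p reached 0.0948 at most. It was also lost when only the 8 female arrays were fitted (limma adjusted p 0.126). The second Fbln5 set, 1446377_at, was among the dim ones and was not called in any comparison. Its mean was 5.75 ± 0.10 in SHS females against 5.96 ± 0.10 in air females, and 5.50 ± 0.24 in SHS males against 5.66 ± 0.27 in air males (SD, n = 4 each).

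Emilin1 and Fbln5 were the genes called in both sexes, and they moved in opposite directions, so the sequences just upstream of their starts are shown. The RefSeq promoter table of the mouse build GRCm38.p6 matched 4 of the 10 genes. The 250 bases before the annotated start are printed in the direction of transcription, at chr5:30913536-30913785 on the plus strand for Emilin1 and at chr12:101819120-101819369 on the minus strand for Fbln5. Capitals mark matches on either strand to the xenobiotic response element core, GCGTG, which the aryl hydrocarbon receptor binds (a sensor of hydrocarbons in smoke). They also mark the GC box, GGGCGG, a site of Sp1 and its relatives. Matches are written as they read in the printed strand, and no match overlapped another.
Emilin1: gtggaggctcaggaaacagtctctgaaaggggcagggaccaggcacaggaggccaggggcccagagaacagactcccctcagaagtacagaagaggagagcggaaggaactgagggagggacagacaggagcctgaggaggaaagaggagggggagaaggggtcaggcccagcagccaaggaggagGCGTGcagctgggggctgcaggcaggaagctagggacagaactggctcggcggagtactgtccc
Fbln5: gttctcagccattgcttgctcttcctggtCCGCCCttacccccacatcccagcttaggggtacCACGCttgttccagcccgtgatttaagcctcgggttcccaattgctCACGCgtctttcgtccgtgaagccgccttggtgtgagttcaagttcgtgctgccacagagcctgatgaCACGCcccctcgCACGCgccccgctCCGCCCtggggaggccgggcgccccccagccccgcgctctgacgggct
The Emilin1 window had a GC content of 63.2% and held 1 xenobiotic response element core and no GC box. The Fbln5 window had a GC content of 65.2% and held 4 xenobiotic response element cores and 2 GC boxes. A TATA box, searched as TATAAA, was in neither window. The AP-1 site, searched on both strands as TGANTCA, was in neither window either. Among 32851 promoter windows of the same length, 28.2% held the xenobiotic response element core, 32.7% the GC box, 12.4% the TATA box and 6.75% the AP-1 site. These shares count windows with at least 1 match, whatever their GC content, so they do not show whether 4 cores or 2 GC boxes are unusual. A match of letters is a description of these windows, and binding was not measured.

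Eln, the gene of elastin itself, was lower after SHS in males by 1 of its 2 probe sets. The set 1420855_at read 8.91, 8.83, 8.39 and 8.50 in SHS males, against 9.51, 9.31, 9.28 and 9.16 in air males, with no overlap. In females it read 9.84, 10.04, 9.84 and 9.41 after SHS, against 10.11, 10.22, 9.60 and 10.04 after air. The female groups overlapped, with air female 3 below 3 of the 4 SHS females.

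The Eln difference in males was -0.65 ± 0.15, 1.57-fold lower with a limma adjusted p of 0.0162. The male call was lost without air male 1 (adjusted p 0.0582) and without SHS male 3 (adjusted p 0.0649), and held in the other 14 fits. In females the difference was -0.21 ± 0.15 and was not called (limma adjusted p 0.545), with a 95% interval of -0.52 to 0.10. Without SHS female 4, the lowest of the females, the female difference was -0.08. Averaged over the sexes, Eln was lower by -0.43 ± 0.11 on the log2 scale (limma adjusted p 0.0129).

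The second Eln set, 1420854_at, read 7.18, 7.17, 7.46 and 7.22 in SHS males, against 7.47, 7.47, 7.60 and 7.34 in air males. Its averaged difference was -0.18 ± 0.09 and was not called (limma adjusted p 0.229). The difference was -0.14 ± 0.12 in females and -0.21 ± 0.12 in males. The Eln call therefore rested on 1 probe set, and the other had the same sign with a smaller size.

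Mfap4 and Mfap5 encode microfibril-associated proteins; MFAP4 binds tropoelastin and MFAP5 binds fibrillin. Mfap4 (1424010_at) read 13.37, 13.16, 13.23 and 13.20 in SHS females, against 13.64, 13.57, 13.33 and 13.58 in air females. In males it read 12.17, 12.15, 11.93 and 12.19 after SHS, against 12.29, 12.35, 12.32 and 12.46 after air. The male groups were separate, and in females 3 of 4 SHS lungs were below every air lung.

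Averaged over the sexes, Mfap4 was lower by -0.27 ± 0.06 on the log2 scale, 1.20-fold (limma adjusted p 0.00552), in each of the 16 fits with an array left out. Neither sex alone reached the threshold. The difference was -0.29 ± 0.08 in females (limma adjusted p 0.0637) and -0.25 ± 0.08 in males (limma adjusted p 0.0877). After quantile normalization both sexes passed, with limma adjusted p of 0.0196 in females and 0.048 in males.

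Mfap5 was not called by either of its 2 sets. The set 1418454_at averaged 9.23 ± 0.25 in SHS females against 9.46 ± 0.09 in air females, and 8.95 ± 0.12 in SHS males against 9.16 ± 0.14 in air males (SD, n = 4 each). Its averaged difference was -0.22 ± 0.08 (limma adjusted p 0.0769). The set 1449082_at read 7.74, 7.80, 7.56 and 7.49 in SHS males, against 8.07, 7.94, 8.17 and 7.84 in air males. These male groups did not overlap, but the difference of -0.36 ± 0.13 was not called (limma adjusted p 0.109). In females the difference of the same set was -0.06 ± 0.13.

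Fbln1 encodes fibulin-1, a component of the elastin core and of basement membranes, and none of its 3 sets was called. The set 1422540_at read 8.19, 7.78, 7.92 and 8.46 in SHS females, against 8.44, 8.25, 8.30 and 8.47 in air females. SHS female 4 was the only SHS female among the air values. The female difference was -0.27 ± 0.12 (limma adjusted p 0.239), and the averaged one was -0.25 ± 0.08 (limma adjusted p 0.0643). Without SHS female 4 the female difference was -0.40 with a limma adjusted p of 0.0191, and the averaged adjusted p was 0.00486. That array was the highest SHS female, so leaving it out had to widen the difference. The set was called in only 1 of 16 fits with an array left out, in females and averaged. Calls over all probe sets in females rose to 3604 in that fit, from 1294. With all 16 arrays, the averaged difference of 1422540_at passed after quantile normalization (limma adjusted p 0.0428) and with a filter on dim sets (0.0435). It also passed with the replicate number as a block (0.048), a trended robust prior (0.049) and array weights (0.031). It did not pass after centring each array on its median. The other sets, 1451119_a_at and 1439688_at, had averaged differences of -0.11 ± 0.07 and 0.03 ± 0.07.

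Among the crosslinking enzymes, Lox was higher after SHS by 1 of its 3 sets. Lox encodes lysyl oxidase, which crosslinks both elastin and collagen. The set 1416121_at read 10.30, 10.45, 10.57 and 10.26 in SHS females, against 10.18, 10.08, 10.06 and 9.89 in air females, with no overlap. In males it read 10.39, 10.22, 10.11 and 10.01 after SHS, against 10.04, 9.87, 9.94 and 9.93 after air. There, 3 of 4 SHS lungs were above every air lung.

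Averaged over the sexes the Lox difference was 0.29 ± 0.06, 1.22-fold, with a limma adjusted p of 0.00724, and it was called in each fit with an array left out. In females it was 0.34 ± 0.09, just inside the threshold with a limma adjusted p of 0.0499. The female call was made in 4 of the 16 fits with an array left out, and was lost after centring each array on its median (0.0516), after quantile normalization (0.072) and when only the 8 female arrays were fitted (0.117). In males the difference was 0.24 ± 0.09 (limma adjusted p 0.151). The set 1448228_at had an averaged difference of 0.24 ± 0.10 (limma adjusted p 0.158). The dim set 1437903_at had one of 0.05 ± 0.07.

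Loxl1 encodes lysyl oxidase-like 1, the family member that in mice is needed to renew elastic fibres in adult tissue. Its brighter set, 1451978_at, read 10.87, 10.64, 10.82 and 10.74 in SHS females, against 11.23, 10.99, 10.58 and 10.73 in air females, and the groups overlapped. In males it read 10.20, 10.27, 10.05 and 10.25 after SHS, against 10.46, 10.46, 10.24 and 10.44 after air. The averaged difference was -0.16 ± 0.08 (limma adjusted p 0.23), with a 95% interval of -0.32 to 0.01. The set 1436063_at had an averaged difference of -0.08 ± 0.06. For the genes with several sets, the calls of Eln, Fbln5 and Lox came from the brightest set of each gene, and Emilin1 was called by both sets.

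Whether the SHS effect differed between the sexes was tested as an interaction, females minus males. No member set was called, and none of all probe sets was either (background 0%). At an unadjusted limma p under 0.05 there were 3709 of the 45037 probe sets, and the lowest adjusted p was 0.141. Only 1 member set was among the 3709, Eln 1420855_at, with a difference between the effects of 0.45 ± 0.21 (95% interval 0.003 to 0.89, limma adjusted p 0.605). The male-only call of Eln is therefore not shown to differ from the female effect. For Fbln5 1416164_at the difference was 0.17 ± 0.09, with an interval of -0.01 to 0.35.

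Other components of the elastic fibre were examined as a list of 12 genes, of which 11 were measured (Efemp2 had no probe set). The brightest probe set, by its mean over the 16 arrays, stood for each gene. Averaged over the sexes, 2 of the 11 were higher and 3 were lower, where 9.2% of all genes were called higher and 4.32% lower. The median of the list was -0.08, beside 0.00 over all genes. Vcan (versican, a large proteoglycan of provisional matrix) rose 1.82-fold, with a log2 difference of 0.87 ± 0.10 (limma adjusted p 3.43e-05). It passed in females (0.86 ± 0.15) and in males (0.88 ± 0.15). Emilin2, a relative of Emilin1, rose by 0.46 ± 0.09 (limma adjusted p 0.00249).

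The latent TGF-beta binding proteins Ltbp2 and Ltbp3 were lower. LTBP-2 binds fibrillin and fibulin-5 without carrying TGF-beta, whereas LTBP-3 carries its latent form. The averaged difference was -0.50 ± 0.08 for Ltbp2 (limma adjusted p 0.000468) and -0.33 ± 0.05 for Ltbp3 (limma adjusted p 0.000455). The Ltbp2 difference was -0.50 ± 0.11 in females and -0.50 ± 0.11 in males. Fbln2, another fibulin, was lower by -0.21 ± 0.05 (limma adjusted p 0.00534); it was named after its values were seen. Of the bright genes that did not pass, Fn1 (fibronectin) had an averaged difference of 0.23 ± 0.08 (limma adjusted p 0.0646) and Efemp1 (fibulin-3) one of -0.15 ± 0.09.

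Of 10 further genes of crosslinking and enzyme maturation, 2 were higher and 2 were lower in the averaged comparison, and their median was 0.12. Of all genes, 9.2% were called higher and 4.32% lower. Tgm2 (transglutaminase 2, which crosslinks matrix proteins through glutamine) rose by 0.31 ± 0.05 (limma adjusted p 0.000688). Plod1 (a lysyl hydroxylase of collagen) rose by 0.25 ± 0.06 (limma adjusted p 0.0121). Tll1 (tolloid-like 1, a relative of the protease that activates lysyl oxidase) was lower by -0.34 ± 0.06 (limma adjusted p 0.00133). Plod2, the lysyl hydroxylase of collagen telopeptides, was lower by -0.23 ± 0.05 (limma adjusted p 0.00797). Postn (periostin, a scaffold for that activating protease) had 0.16 ± 0.05 and was not called (limma adjusted p 0.0668).

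Among 12 TGF-beta ligands, receptors and elastic fibre integrins, 1 was higher (9.2% of all genes) and 3 were lower (4.32% of all genes). The averaged median of the list was -0.09. Itga8 (the alpha subunit of integrin alpha8 beta1) was lower by -0.43 ± 0.10 (limma adjusted p 0.00815). Npnt (nephronectin, a ligand of that integrin) was lower by -0.34 ± 0.07 (limma adjusted p 0.00411). Tgfbr1 (the type I TGF-beta receptor) was lower by -0.33 ± 0.06 (limma adjusted p 0.00105) and was also called in males alone. The receptor genes Tgfbr2, with -0.03 ± 0.05 (limma adjusted p 0.777), and Tgfbr3, with -0.29 ± 0.11 (limma adjusted p 0.108), were not called. Itgb3, an integrin subunit that binds several matrix proteins, rose by 0.18 ± 0.04 (limma adjusted p 0.0128). None of the 3 TGF-beta ligand genes was among the called.

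The proteases that can degrade elastin showed no call in any comparison, with 0 of 11 genes past limma's adjusted threshold and a median of 0.06. At an unadjusted limma p under 0.05 there were 2 in females, 1 in males and 1 averaged. Of all 45037 probe sets, 7224 in females, 9096 in males and 10668 averaged were under it. The brightest protease was Ctss (cathepsin S), with an averaged difference of 0.09 ± 0.06 (limma adjusted p 0.411). Ctsl (cathepsin L) had -0.18 ± 0.11 (limma adjusted p 0.37). Of 6 protease inhibitors, Timp1 (an inhibitor of matrix metalloproteinases) rose 4.86-fold, with a log2 difference of 2.28 ± 0.16 (limma adjusted p 6.38e-07). Its difference was 2.13 ± 0.23 in females and 2.43 ± 0.23 in males, both called. Cst3 (cystatin C, an inhibitor of cathepsins) was lower by -0.16 ± 0.05 (limma adjusted p 0.0374). The median of the 6 inhibitors was 0.00.

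**Figure D3:**
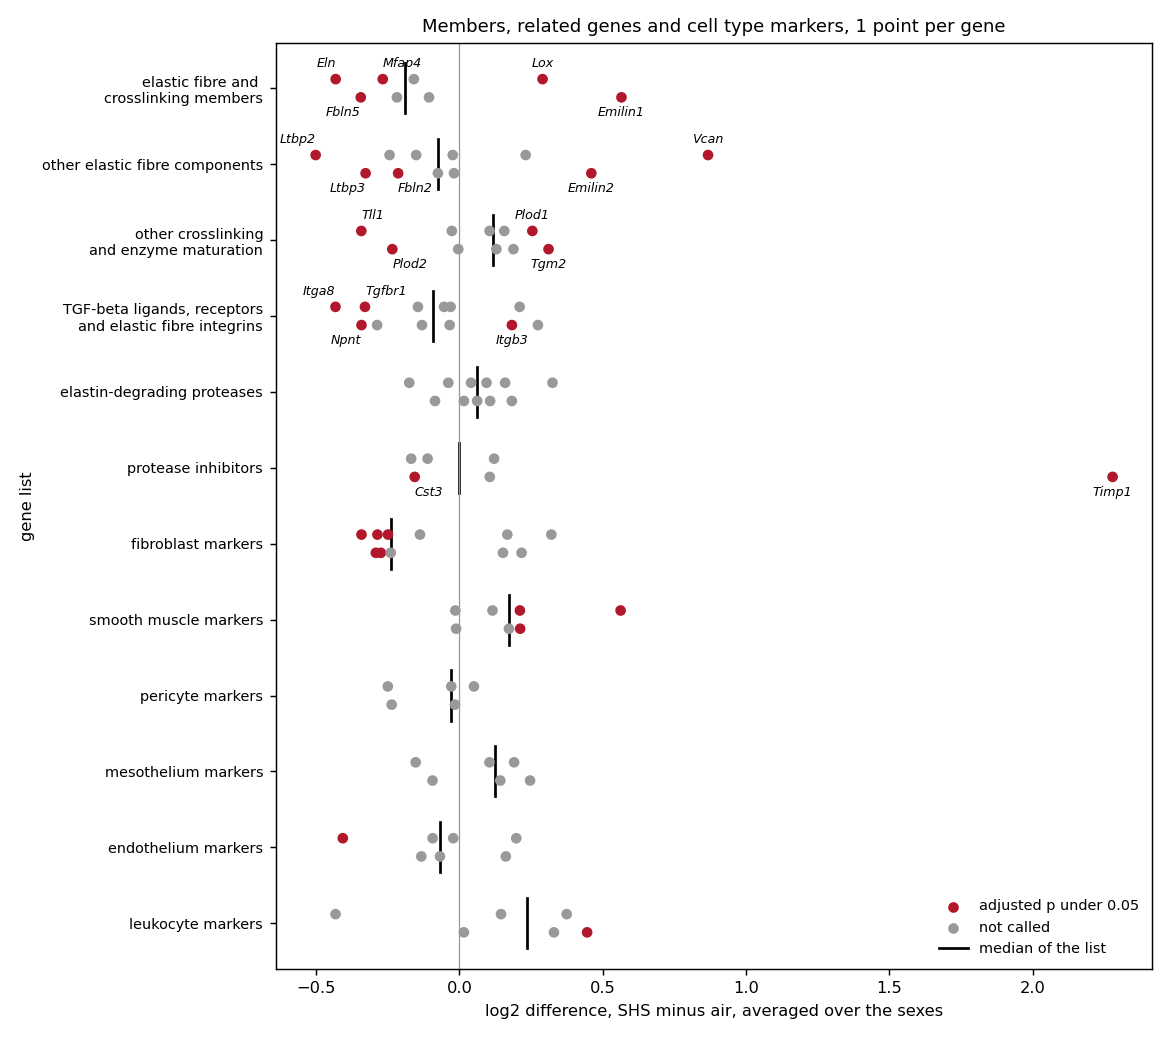
SHS minus air log2 difference averaged over the sexes, 1 point per gene (its probe set of the highest mean), for the member genes and for lists of related genes and cell type markers; red marks an adjusted p under 0.05 and the black line is the median of a list. Timp1 stands farthest to the right at 2.28, and the elastic fibre members and components fall on both sides of 0.

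Markers of the cells that make elastic fibres also moved. Of 11 fibroblast markers, 5 were lower and none higher in the averaged comparison, with a median of -0.24. Of all genes, 4.32% were called lower and 9.2% higher. The median of the fibroblast markers was -0.25 in females and -0.03 in males. The 5 were Tcf21, Npnt, Pdgfra, Dpt and Inmt, named after their values were seen; Npnt stands in the integrin list as well. Of the other 6, 4 had positive averaged differences without a call: Col1a1 (0.32), Col3a1 (0.22), Col1a2 (0.17) and Pi16 (0.15), also named after their values were seen. Col1a1, Col1a2 and Col3a1 encode chains of the fibrillar collagens. The mean log2 level of the list ran between 11.08 and 11.44 in SHS females, 11.33 and 11.58 in air females, 11.09 and 11.24 in SHS males, and 11.21 and 11.24 in air males. Tcf21, a transcription factor of lung fibroblasts, was lower by -0.56 ± 0.09 in females (limma adjusted p 0.00315), while its difference in males was -0.02 ± 0.09. The difference between these effects was not called (limma adjusted p 0.383).

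Of 7 smooth muscle markers, 3 were higher (9.2% of all genes) and none lower (4.32% of all genes) when averaged, with a median of 0.17. The 3 were Actg2, Acta2 and Des, and the largest difference among them was 0.56 ± 0.12 for Actg2 (limma adjusted p 0.00587). The list level ran between 10.21 and 10.56 in SHS females, 9.98 and 10.46 in air females, 10.29 and 10.45 in SHS males, and 10.17 and 10.25 in air males. The SHS males were thus all above the air males in this list, while the female ranges overlapped. Male ranges were also separate for the TGF-beta and integrin list (SHS 10.15 to 10.18, air 10.21 to 10.35). They were separate for the protease inhibitors too (SHS 11.28 to 11.49, air 10.93 to 11.19). For the inhibitors the female ranges were separate as well (SHS 11.24 to 11.47, air 10.97 to 11.19). That list level includes Timp1, and the median difference of the inhibitors was -0.01 in females and -0.01 in males. Among single probe sets, 15.4% were separate in males and 8.25% in females. The part of fibroblast and smooth muscle content in the differences of Eln, Fbln5, Mfap4, Lox and Emilin1 was not tested.

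Markers of other structures showed fewer calls, where 9.2% of all genes were called higher and 4.32% lower in the averaged comparison. Among 7 endothelial markers only Tek was called, lower by -0.41 ± 0.08 (limma adjusted p 0.00307). None of the 5 pericyte, 6 mesothelial, 7 lung epithelial, 4 adipocyte and 7 heart muscle markers measured was called by limma in the averaged comparison. At an unadjusted limma p under 0.05 there were 2 pericyte, 2 mesothelial, 1 lung epithelial, 0 adipocyte and 1 heart muscle markers. Of all 45037 probe sets, 10668 were under it in the averaged comparison. The heart muscle markers, which mouse pulmonary veins also express, had a list level between 8.75 and 9.85 in SHS females, 8.64 and 10.11 in air females, 9.85 and 10.38 in SHS males, and 8.74 and 10.08 in air males. Their median difference in males was 0.80 with no call. In males 4 of the 7 had an unadjusted limma p under 0.05, as had 9096 of all 45037 probe sets. The part of heart muscle in the male differences was not tested. The 7 cartilage markers had 1 gene higher and 1 lower, and their level stayed between 6.23 and 6.56 in all groups. Of 6 leukocyte markers 1 was higher, Itgax, with a median of 0.24.

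The genes whose variation within groups was most like that of Eln were also listed. The measure was Pearson's r between the deviations of 16 arrays from their group means, over 11396 genes above the median intensity, as a description without a test. The 5 most alike were Acta2 (0.929), Nup37 (0.902), Cnn1 (0.886), Fanca (0.865) and Mmp14 (0.851). Acta2 and Cnn1 encode smooth muscle actin and calponin, and Mmp14 a membrane-bound metalloproteinase, whereas Nup37 is a nuclear pore protein and Fanca a DNA repair protein. These arrays share their groups and normalization. Acta2 was higher after SHS in the averaged comparison, by 0.21 ± 0.06, where Eln was lower.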

How the data were processed

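Total RNA was hybridized as biotinylated cRNA to Affymetrix Mouse Genome 430 2.0 arrays, per the labels. The authors deposited 1 log2 intensity per probe set and array. The summarisation and normalization are not given in the sources used here; the submitters' processing notes name limma without version or role, and base 2 was settled from the range of 2.58 to 15.2. Values were used as deposited. Of 45101 features, 64 control sets were left out. Symbols came from the platform annotation (34945 sets with 1 symbol, 932 with several, 9160 with none). Of the sets with 1 symbol, 34741 were matched to RefSeq by Entrez gene id and took the current RefSeq symbol.

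Means of the 4 groups were fitted with limma 3.58.1 in R 4.3.3 (data.table version 1.17.8), with 12 residual and 5.56 prior degrees of freedom. Tests were two-sided, with Benjamini-Hochberg adjustment of p across all 45037 sets of a comparison. The steps were tested on simulated data. Figures used matplotlib 3.10.9 in Python 3.11.15.

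The members and lists were chosen with earlier results of these data known. All members were named. From each related list up to 4 called genes with the largest averaged difference were named, plus up to 2 bright ones not called; from marker lists, only counts and medians unless stated. Alternatives were other normalizations, a filter on dim sets, a replicate block, 8-array fits, array weights, a trended robust prior, other thresholds, arrays left out and the mean of a gene's probe sets. Precision is limited by 4 arrays per group.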

Additional observations from a re-analysis of the deposited data

Results flagged for a closer look

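In 10 of the 164 groups of 4 arrays examined for named genes, the highest or lowest array lay apart from the other 3 by more than Dixon's 95% critical ratio. Chance gives about 5% of groups. Among the members these were Eln 1420854_at in SHS male 3 (7.46, others 7.17 to 7.22), Fbln1 1422540_at in SHS male 3 (7.92, others 8.12 to 8.15), Loxl1 1451978_at in air male 3 (10.24, others 10.44 to 10.46) and Emilin1 1431834_a_at in air male 4 (7.43, others 7.14 to 7.16). Without air male 4, the male difference of that Emilin1 set was 0.37 and passed the test (limma adjusted p 0.0266). That array was the highest air male, so leaving it out had to widen the difference. The set was called in males in 3 of the 16 fits with an array left out. The others were Itga8 in SHS male 4 (12.42, others 12.03 to 12.09), Ctss in SHS male 4 (13.68, others 13.93 to 13.95), Slpi in SHS male 4 (12.96, others 14.21 to 14.32), Plod2 in air female 1 (10.34, others 10.18 to 10.20), Tgfbr3 in air female 2 (12.07, others 11.83 to 11.87) and Cst3 in air female 3 (13.75, others 13.97 to 13.98).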

How the results depend on the processing

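No result that was called changed sign under any alternative. The averaged calls of Eln, Fbln5, Lox, Mfap4 and both Emilin1 sets held in every fit with 1 array left out, and no member reached the interaction threshold in any alternative. Under quantile normalization 5 member sets were called in males, where 2507 sets were called in all. The share of higher among all female calls was then 70.6% in place of 82.0%. The second Emilin1 set then passed in males (limma adjusted p 0.0474), and averaged Fbln1 1422540_at (0.0428) and Mfap5 1418454_at (0.0406) passed too. With only the 8 arrays of a sex, 448 sets and 1 member were called in females. Array weights gave 3985 calls in females, 4398 in males and 7717 averaged. At an adjusted p under 0.10 there were 2334 in females and 4073 in males, with 5 members in males. With a 1.5-fold minimum 366 sets and 0 members were called in females, and 463 sets and 2 members in males. The 2 members were Emilin1 1416414_at, higher, and Eln 1420855_at, lower. Averaged, 406 sets and 0 members were called. Without both SHS arrays numbered 4 there were 3954 calls in females and 7520 averaged. Leaving out 1 array in turn gave 657 (without SHS female 1) to 3604 (without SHS female 4) calls and 2 to 5 members in females, against 1294 and 4 with all arrays. There were 2 members without SHS female 1, SHS female 2 or air female 2. Female calls numbered 657 to 797 without SHS female 1, 2 or 3 or air female 2, 3 or 4. It gave 1073 (without SHS male 3) to 3153 calls and 2 to 4 members in males, against 2332 and 3, and 1073 to 1370 without SHS male 1, 2 or 3 or air male 1 or 3. Averaged calls ran between 3514 and 6983 (without SHS female 4), with 6 to 8 members, and the interaction had 0 in each fit. The causes of these shifts were not tested.

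Arrays with the same replicate number did not deviate together, with correlations between -0.08 and 0.267 in females and between 0.02 and 0.115 in males, so the numbers were not taken as pairs. A fit with the replicate number as a block called 1537 sets in females, 2439 in males, 5061 averaged and 0 in the interaction, with 5, 3, 7 and 0 members. Taking the mean of a gene's probe sets in place of its brightest set moved 26 of 28 group means by over 1 SD, and the calls do not use these means. The 4 arrays per group limit what small differences can show.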
